A study of Mus musculus with 17 samples.

Results

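Interferons are secreted signals that cells release when they sense virus or certain inflammatory cues. Type I interferon binds a receptor whose kinases phosphorylate Stat2, which joins Irf9 in a complex that switches on antiviral genes. Irf7 amplifies the production of type I interferon, and Irf1 carries much of the response to interferon gamma. The antiviral effectors include the Ifit proteins, which bind foreign RNA, the Ifitm membrane proteins, which hinder viral entry, and the Oas enzymes, which make an activator of RNase L. In brain, microglia, astrocytes, vessel cells and neurons can all respond to interferon.

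The genes described are 4 interferon transcription factors (Irf1, Irf7, Irf9 and Stat2) and 4 antiviral effectors (Ifit2, Ifit3, Ifitm3 and Oas1a). They were chosen by name, as every probe set whose only platform gene symbol was one of these 8, which gave 9 probe sets for 8 of the 12393 genes with such a probe set. Their signals were measured on Affymetrix arrays of whole mouse hypothalamus, with 1 array for each of 17 animals. All animals were male C57Bl/6 mice, 9 weeks old. The 6 STZ mice were wildtype and had been given a single intraperitoneal dose of 200 µg/g streptozotocin, which destroys the insulin-producing beta cells and leaves a mouse diabetic. The 5 ob/ob mice carry the leptin-deficient genotype and become obese and insulin resistant; the labels give no injection for them. The 6 control mice were wildtype and received vehicle. In whole tissue, fewer cells of a type and less RNA per cell cannot be told apart. The labels give no litter, cage or batch, so the p-values below measure the spread between these animals and arrays.

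Promoter sequence is shown for Irf1, Stat2, Ifit3 and Oas1a, and a match in Ifit2 is given without its sequence. Windows of 250 bases upstream of a RefSeq transcript start (build GRCm38.p6) were searched for 2 motifs known to bind interferon-activated factors. The first is a paired motif of the interferon regulatory factors, GAAANNGAA, and the second is the STAT motif TTCNNNGAA. Both strands were searched, so the first also appears as its reverse complement, while the second reads the same on either strand. The 8 members had 11 such windows. For Ifit2, Ifit3 and Oas1a the start used lies inside the gene span given further on, so their windows overlap that span in part or in whole. The stretches below are written along each gene's own strand, and the capitals mark the motif matches.
Irf1, STAT motif, chr11:53769864-53770013, plus strand: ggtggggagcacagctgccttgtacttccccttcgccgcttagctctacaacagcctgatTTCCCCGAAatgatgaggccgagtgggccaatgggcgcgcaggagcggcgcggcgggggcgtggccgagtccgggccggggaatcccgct
Stat2, paired motif reversed, chr10:128270248-128270347, plus strand: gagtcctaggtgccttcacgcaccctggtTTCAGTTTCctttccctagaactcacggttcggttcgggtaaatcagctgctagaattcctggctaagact
Ifit3, paired motif reversed, chr19:34583407-34583436, plus strand: tTTCAGTTTCtactttcctcTTCCCTTTCa
Oas1a, STAT motif, chr5:120907555-120907655, minus strand: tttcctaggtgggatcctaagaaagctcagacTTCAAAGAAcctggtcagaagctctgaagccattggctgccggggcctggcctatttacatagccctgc
Oas1a, paired motif, chr5:120907526-120907554, minus strand: ccttctcggGAAATGGAAACTGAAaatct

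The paired motif stood in 3 of the 11 member windows (Stat2, Ifit3 and Oas1a), against 7.13% of the 32851 windows of that length in the same table. By gene that is 3 of 8 members, against 8.18% of 27025 genes with any such window. In Oas1a its 2 matches overlap, 20 to 12 and 14 to 6 bases before the start, and run together in the capitals. In Ifit3 it occurred 3 times, and the 2 matches nearest the start are shown. The STAT motif also stood in 3 of the 11 windows (Irf1, Ifit2 and Oas1a), against 7.02% of all windows. By gene that is 3 of 8 members, against 8.13% of all genes, and its Ifit2 match lies 241 to 233 bases before the start. These matches describe letters in a fixed window and carry no measurement of binding.

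The values were deposited MAS5 signals, a linear brightness per probe set, whose 2% trimmed mean was 1500.4 on every array. Array medians ran from 638 to 707, and correlations between arrays from 0.954 to 0.972. Of 22626 probe sets 13576 had a mean above the 40th percentile (a geometric mean of 435) and were tested. All 8 members were tested on 1 probe set each, while the dimmer Stat2 probe set fell below that level. Of 22 markers of hypothalamus, 18 had a probe set and 13 were bright enough to test. Their mean log2 level differed by -0.10 between STZ and control and by -0.21 between ob/ob and control (exact two-sided permutation p = 0.0801 and 0.0108, adjusted 0.187 and 0.0758). Most but not all of them lay below 0, 10 and 11 of the 13. Pomc was lowest, at -0.65 and -0.75 (limma adjusted p = 0.0384 and 0.0121), while Npy stood at 0.34 and 0.27. Markers of striatum, cortex and thalamus differed by 0.20 and 0.33 in the same comparisons (exact permutation p = 0.0368 and 0.00433, adjusted 0.136 and 0.0682). Of 24 listed 10 were tested, and all 10 lay above 0 in both comparisons. The part that dissection played in the results below was not tested, except where values adjusted for the level of these region markers are given.

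In STZ hypothalami all 8 members had a mean signal above that of the controls, by small amounts, and none passed the test. The median of their log2 fold changes was 0.16, with a range from 0.062 to 0.39, while the median over all probe sets tested was 0.0006. Values above 0 made up 50.3% of all probe sets tested. In limma with Benjamini-Hochberg adjustment over all probe sets tested, 0 of the 8 had an adjusted p under 0.05, where 0.0516% of all probe sets did (7 of 13576). At an unadjusted p under 0.05 there was 1 member, Ifitm3, which had the higher mean in STZ, against 8.24% of all (3.87% with STZ higher). No member separated the groups without overlap, which 0.567% of all probe sets did.

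In ob/ob hypothalami the members split, 3 with a mean above the controls and 5 below, and again none passed. Their median log2 fold change was -0.14, with a range from -0.75 to 0.038, beside a median of -0.0005 over all probe sets tested, 49.8% of which lay above 0. Of the 8 members 0 had an adjusted p under 0.05, against 0.125% of all probe sets. One member, Oas1a, had an unadjusted p under 0.05, with ob/ob lower, against 11.9% of all (6.12% with ob/ob lower). Groups without overlap occurred for 0 members and for 1.91% of all probe sets.

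Between the 2 models, all 8 members had a lower mean in ob/ob than in STZ hypothalami, and 2 of them, Ifitm3 and Oas1a, did so with no overlap between the groups (0.42% of all probe sets separated these groups, 0.273% with ob/ob lower). The median log2 difference, ob/ob over STZ, was -0.24, with a range from -0.91 to -0.092; 49.9% of all probe sets lay above 0. None of the 8 passed after adjustment (0.0368% of all probe sets did), and 4 had an unadjusted p under 0.05 (Oas1a, Ifitm3, Irf7 and Irf9; 3.93% of all, 2% with ob/ob lower). The 3 comparisons use the same arrays in pairs, so they are not independent of each other.

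**Figure D1:**
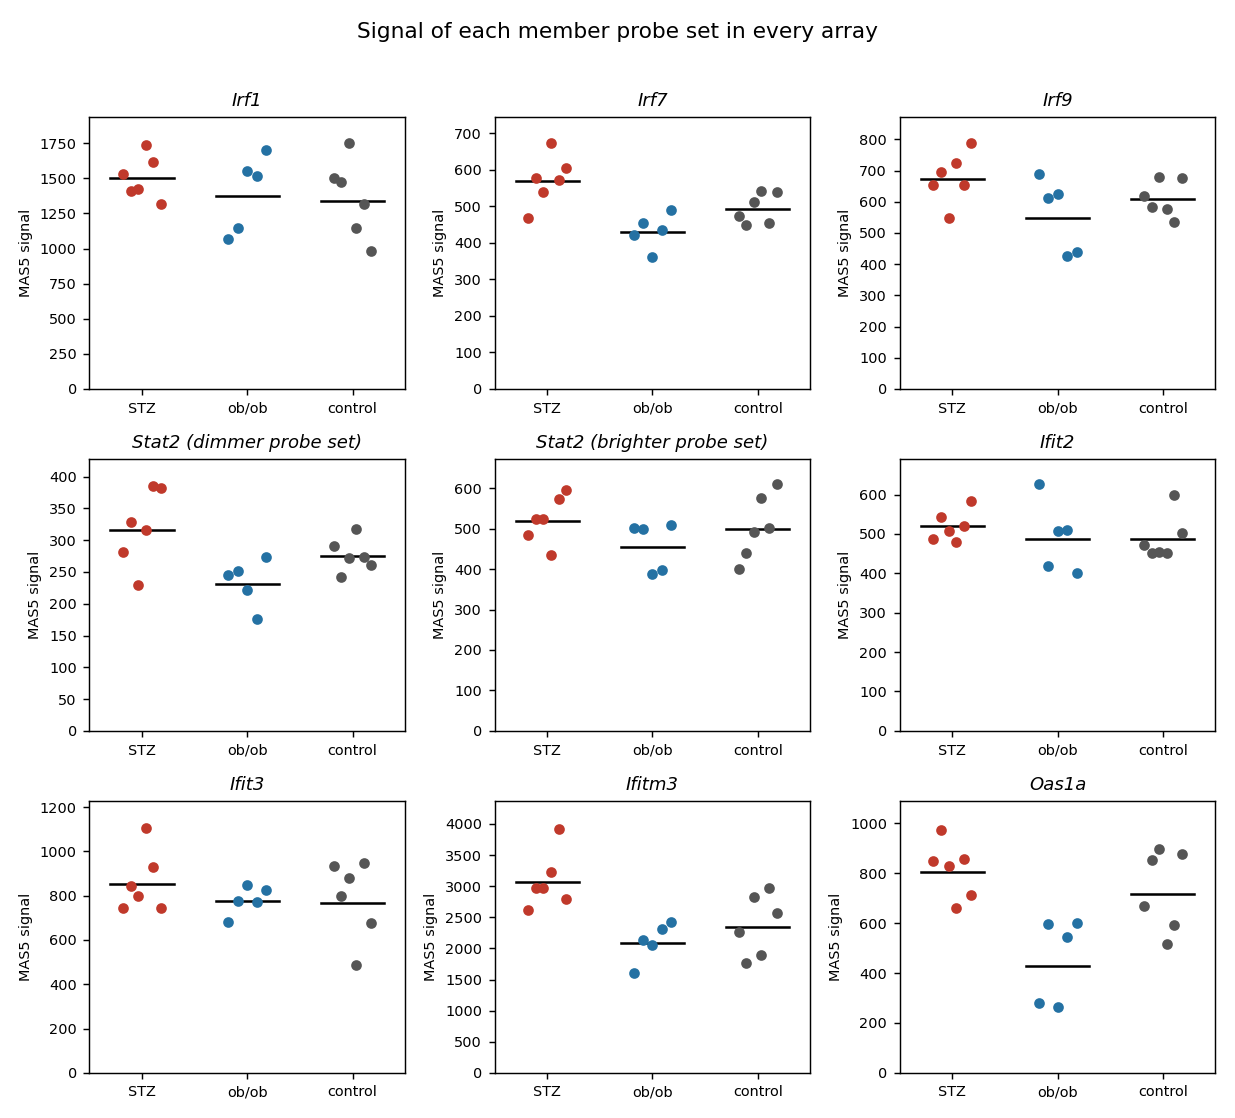
Deposited MAS5 signal (linear, vertical axis from 0) of the 9 member probe sets in every hypothalamus, with STZ (n = 6), ob/ob (n = 5) and control (n = 6) from left to right; each point is 1 array and each bar is the geometric mean of a group. Ifitm3 and Oas1a are the members whose ob/ob points all lie below their STZ points, and the other panels overlap.

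Irf1 is the transcription factor most closely tied to interferon gamma, and its gene lies at chr11:53770014-53778374. Its signal in STZ hypothalami ran from 1319 to 1736 with a median of 1479. The 5 ob/ob hypothalami had 1071, 1147, 1516, 1551 and 1704, and the controls ran from 984 to 1754 with a median of 1397. The STZ arrays lay within the control range, and the ob/ob arrays did so too. The log2 fold change was 0.16 ± 0.13 (SE) for STZ against control and 0.038 ± 0.14 for ob/ob against control (limma adjusted p = 0.786 and 0.943). Its geometric means were 1501 in STZ, 1375 in ob/ob and 1339 in control, with no neighbours differing beyond their spread. The median was highest in ob/ob.

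Irf7, the amplifier of type I interferon production (chr7:141263183-141266499), gave the most regular order among the transcription factors. STZ hypothalami ran from 469 to 674 with a median of 575, the ob/ob hypothalami had 362, 421, 436, 453 and 490, and the controls ran from 448 to 542 with a median of 494. Of the 6 STZ arrays 4 were above every control and 1 was below the control mean. All 5 ob/ob arrays were below the control mean, 3 of them below every control. The log2 fold change was 0.21 ± 0.10 in STZ and -0.20 ± 0.11 in ob/ob against control (limma adjusted p = 0.616 and 0.487). Between the models it was -0.40 ± 0.11, ob/ob over STZ, with 4 of 5 ob/ob arrays below every STZ array (unadjusted p = 0.00118, limma adjusted p = 0.615). Its levels thus ran STZ, control, ob/ob, and neither step from one neighbour to the next passed the test.

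Irf9, the DNA-binding part of the complex with Stat2 (chr14:55603985-55610030), followed the same order in its geometric means, with a wider spread. In STZ hypothalami the signal ran from 547 to 788 with a median of 674. The ob/ob hypothalami had 425, 440, 613, 625 and 688, and the controls ran from 534 to 678 with a median of 600. The low ob/ob mean came from 2 arrays, replicates 4 and 5, which lay below every control and every STZ array, while the other 3 lay above the control mean. Against control the log2 fold change was 0.14 ± 0.12 in STZ and -0.15 ± 0.13 in ob/ob (limma adjusted p = 0.803 and 0.683). It was -0.30 ± 0.13 for ob/ob over STZ (unadjusted p = 0.0314, limma adjusted p = 1.0).

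Stat2, the partner that brings the activating domain to that complex, lies at chr10:128270498-128292853 and had 2 probe sets. On the brighter one the STZ hypothalami ran from 434 to 597 with a median of 524, the ob/ob hypothalami had 387, 398, 498, 501 and 509, and the controls ran from 401 to 611 with a median of 497. The STZ arrays lay within the control range, and 2 ob/ob arrays lay just below it. The log2 fold change was 0.062 ± 0.12 in STZ and -0.13 ± 0.12 in ob/ob against control (limma adjusted p = 0.920 and 0.734). On the dimmer probe set, below the signal filter, STZ ran from 229 to 385 with a median of 322, ob/ob had 177, 222, 246, 251 and 274, and controls ran from 243 to 318 with a median of 272. In a fit without the filter these gave 0.20 ± 0.15 and -0.25 ± 0.16 (limma adjusted p = 0.866 and 0.695). Both probe sets had the same order of geometric means, STZ above control above ob/ob, and neither passed. On the brighter one the ob/ob median of 498 was next to the control median of 497.

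Ifit2, which binds viral RNA and restrains its translation (chr19:34550550-34576534), had the ob/ob value nearest to control of the 8. STZ hypothalami ran from 479 to 584 with a median of 515, the ob/ob hypothalami had 400, 420, 509, 511 and 627, and the controls ran from 452 to 600 with a median of 463. The ob/ob arrays held both the lowest and the highest values of the 17, around a geometric mean of 487 that equalled the control's. The log2 fold change was 0.094 ± 0.11 in STZ and 0.0013 ± 0.12 in ob/ob against control (limma adjusted p = 0.868 and 0.998). Its near neighbour Ifit3 (chr19:34583119-34588982), a partner that stabilises Ifit1 on RNA in human cells, ran from 742 to 1105 in STZ with a median of 819. It stood at 681, 772, 777, 825 and 848 in ob/ob, and ran from 485 to 947 in controls with a median of 840. One STZ array, replicate 4, exceeded every control, and the control median was above the STZ median although the STZ mean was higher. The Ifit3 log2 fold change was 0.15 ± 0.14 in STZ and 0.022 ± 0.15 in ob/ob against control (limma adjusted p = 0.830 and 0.972). Mouse Ifit3 has a close copy that this probe set may also detect, so its signal may not be of 1 gene.

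Ifitm3, a membrane protein that blocks fusion of incoming viruses (chr7:141009590-141010744), had the highest STZ value relative to control of the 8. The STZ hypothalami ran from 2618 to 3927 with a median of 2977. The ob/ob hypothalami had 1599, 2052, 2133, 2306 and 2428, and the controls ran from 1769 to 2967 with a median of 2422. All 6 STZ arrays lay above the control mean and 4 above every control, and 4 of 5 ob/ob arrays lay below the control mean. The STZ signal was 1.31-fold that of the controls (log2 0.39 ± 0.13, 95% interval 0.12 to 0.65; unadjusted p = 0.00672, limma adjusted p = 0.387). Against control the ob/ob value was -0.17 ± 0.13 (limma adjusted p = 0.665). In ob/ob the signal was 0.680 of that in STZ (log2 -0.56 ± 0.13), with all 5 ob/ob arrays below every STZ array (unadjusted p = 0.000516, limma adjusted p = 0.401). It ranked 16th of 13576 by p in that comparison.

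Oas1a, an enzyme that turns double-stranded RNA into an alarm signal for RNase L (chr5:120896256-120907544), had the lowest ob/ob values relative to control. STZ hypothalami ran from 659 to 973 with a median of 841, the ob/ob hypothalami had 262, 281, 544, 597 and 602, and the controls ran from 516 to 897 with a median of 761. Replicates 1 and 3 of ob/ob stood apart, at less than any other array, and the other 3 lay within the lower part of the control range. The ob/ob signal was 0.596 of the control signal (log2 -0.75 ± 0.21, 95% interval -1.19 to -0.30; unadjusted p = 0.00234, limma adjusted p = 0.149). All 5 ob/ob arrays lay below the control mean. Against STZ it was 0.531 (log2 -0.91 ± 0.21), with no overlap (unadjusted p = 0.000379, limma adjusted p = 0.343). The STZ value was 0.17 ± 0.20 against control (limma adjusted p = 0.868). With the microglia marker level as a covariate, the ob/ob value against control was -0.48 (limma adjusted p = 0.556). With the level of striatum, cortex and thalamus markers it was -0.60 (limma adjusted p = 0.746). Covariates added after the data were seen gave larger differences. They were the level of Igf2, Dcn, Col1a2 and Igfbp2 (-0.76) and of all choroid plexus and meninges markers tested (-0.94; limma adjusted p = 0.113 and 0.145). Mouse has several Oas1 genes in tandem, and their share in this signal cannot be told apart here.

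**Figure D2:**
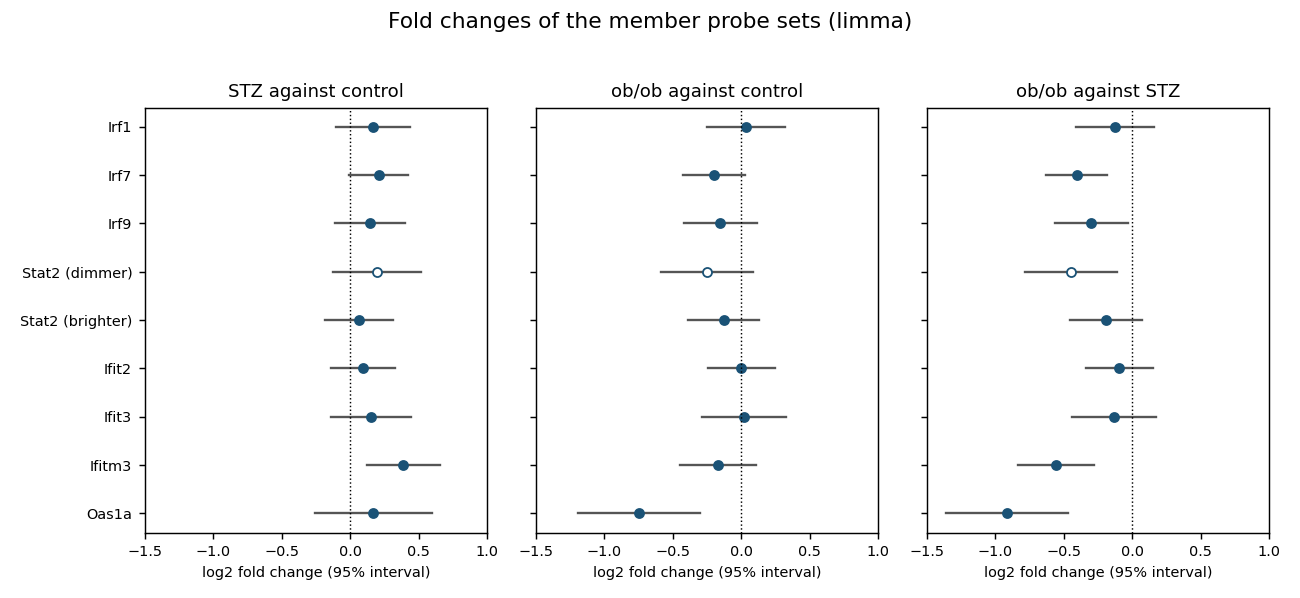
Log2 fold change (horizontal axis, limma, 95% interval as the line) of each member probe set for, from left to right, the STZ and the ob/ob group over control and ob/ob over STZ; open circles are the dimmer Stat2 probe set, taken from a fit without the signal filter. In the left panel all values lie right of 0, from 0.062 to 0.39, in the right panel all lie left of it, and none passed after adjustment.

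Microglia, a main interferon-responding cell of brain, showed little difference as a marker list in STZ and slightly lower levels in ob/ob. Of 16 markers 15 had a probe set and 12 were tested. The summed signal of the 15 ran from 27860 to 28865 in STZ, from 24946 to 29255 in ob/ob and from 27147 to 30700 in control hypothalami. The mean log2 level of the 12 tested differed by -0.016 in STZ against control (exact two-sided permutation p = 0.632). It differed by -0.082 in ob/ob against control (exact permutation p = 0.0325, adjusted 0.136). There 10 of the 12 lay below 0, and the lowest was Cx3cr1 at -0.49 (limma adjusted p = 0.106). In ob/ob against STZ the microglia level differed by -0.066 (exact permutation p = 0.00649, adjusted 0.0682). With the microglia level as a covariate, Ifitm3 changed sign in ob/ob against control, to 0.056 (limma adjusted p = 0.949). Irf1 and Ifit2 also changed sign there, to -0.020 and -0.060 (limma adjusted p = 0.986 and 0.944). In ob/ob against STZ no member changed sign with that covariate. The part that microglia played was not tested beyond this fit. Of 11 T and NK cell markers 8 had a probe set and 0 were bright enough to test, with summed signals of 1003 to 1647 in STZ, 986 to 1535 in ob/ob and 1087 to 1619 in control.

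Among the animals of a group the 8 members varied with mixed sign. Over the 17 arrays, as deviations of log2 signal from the group mean, the 28 pairs of members had Pearson correlations from -0.63 to 0.64 with a median of 0.06, and 15 were above 0. The highest were Irf1 with Ifit3 (0.64), Ifit3 with Ifitm3 (0.57) and Irf7 with Stat2 (0.43). The lowest were Irf1 with Stat2 (-0.63), Stat2 with Ifit3 (-0.59) and Ifit2 with Oas1a (-0.54). All values on an array share its hybridisation and scaling, and these correlations are descriptions of 17 arrays.

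Each member was also set against the 7982 tested genes that are not members by the same measure, and the 3 most alike are named. For Irf1 these were 2210016L21Rik, Znhit2 and Ergic3 (0.82, 0.8 and 0.8), for Irf7 Ddx59, Fpgs and Stimate (0.76 each), and for Irf9 Bbox1, Chmp7 and Slx1b (0.88, 0.85 and 0.84). For Stat2 they were Psg23, Robo4 and Acadsb (0.87, 0.83 and 0.82), and for Ifit2 Rab33b, Msh6 and Psma3 (0.82, 0.8 and 0.79). Ifit3 was most like Ufd1, Alcam and Serping1 (0.85, 0.82 and 0.8), and Oas1a most like Tbc1d10a, Adpgk and Sertad3 (0.86, 0.84 and 0.83). None of these genes was on the lists of the interferon pathway used here.

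The genes most like Ifitm3 included markers of the meninges. They were Igf2 (0.90), a growth factor made by the meninges, Dcn (0.89), a proteoglycan of meningeal fibroblasts, and Slc6a20a (0.86), a proline transporter. The correlation with Igf2 was 0.96 in STZ, 0.89 in ob/ob and 0.88 in control arrays, and with Dcn 0.95, 0.89 and 0.89. Of the other tested markers of choroid plexus and meninges, Igfbp2 and Col1a2 stood at 0.83 and 0.82 and Ttr, the choroid plexus marker, at 0.05. The Ttr probe set is of the cross-hybridising kind. Of 15 markers on that list 13 had a probe set and 5 were tested. The summed signal of the 13 ran from 6833 to 10773 in STZ, from 7308 to 19352 in ob/ob and from 6497 to 13309 in control hypothalami. The mean log2 level of the 5 tested differed by 0.58 in ob/ob against STZ (exact two-sided permutation p = 0.039, adjusted 0.136). It differed by 0.50 in ob/ob against control (exact permutation p = 0.0714, adjusted 0.187). Most of both differences came from Ttr, at 2.04 against STZ and 2.35 against control. Igfbp2, Igf2, Col1a2 and Dcn stood at 0.48, 0.28, 0.093 and 0.00038 against STZ. Against control they stood at 0.21, -0.0052, 0.051 and -0.097.

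Igf2 and Dcn did not pass in any comparison, and in STZ against control their values had the opposite sign to that of Ifitm3. Igf2 ran from 1289 to 2856 in STZ with a median of 1616, stood at 1203, 1805, 2058, 2656 and 3428 in ob/ob, and ran from 1322 to 4078 in controls with a median of 1933. Its log2 fold change was -0.29 ± 0.26 in STZ and -0.0052 ± 0.28 in ob/ob against control, and that of Dcn was -0.098 ± 0.15 and -0.097 ± 0.16 (limma adjusted p between 0.825 and 0.996). A fit with the mean level of Igf2, Dcn, Col1a2 and Igfbp2 as a covariate was added after these values were seen. In it Ifitm3 was higher in STZ than in control by 0.48 ± 0.068 (limma adjusted p = 0.00401) and lower in ob/ob than in STZ by a log2 value of -0.67 ± 0.072 (limma adjusted p = 0.00023). It stood at -0.19 ± 0.070 in ob/ob against control (limma adjusted p = 0.294). Since genes were taken into the covariate because Ifitm3 tracked them on these arrays, the smaller spread is in part built in by that choice.

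With all 5 tested markers of the choroid plexus and meninges list as the covariate, also added afterwards, the STZ value was 0.43 ± 0.077 (limma adjusted p = 0.032). Leaving out each array in turn gave that call in 7 of 17 fits (adjusted p 0.0245 to 0.157). The ob/ob value against STZ was then -0.89 (limma adjusted p = 0.000346), and this covariate includes Ttr, whose level in ob/ob exceeded control by a log2 value of 2.35 ± 0.49 (limma adjusted p = 0.0558) with no overlap. Of all probe sets tested, 1.91% separated ob/ob from control. Without a covariate no fit that left out 1 array called Ifitm3. Whether the amount of meninges on the dissected tissue played a part in the Ifitm3 signal was not tested beyond these fits.

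**Figure D3:**
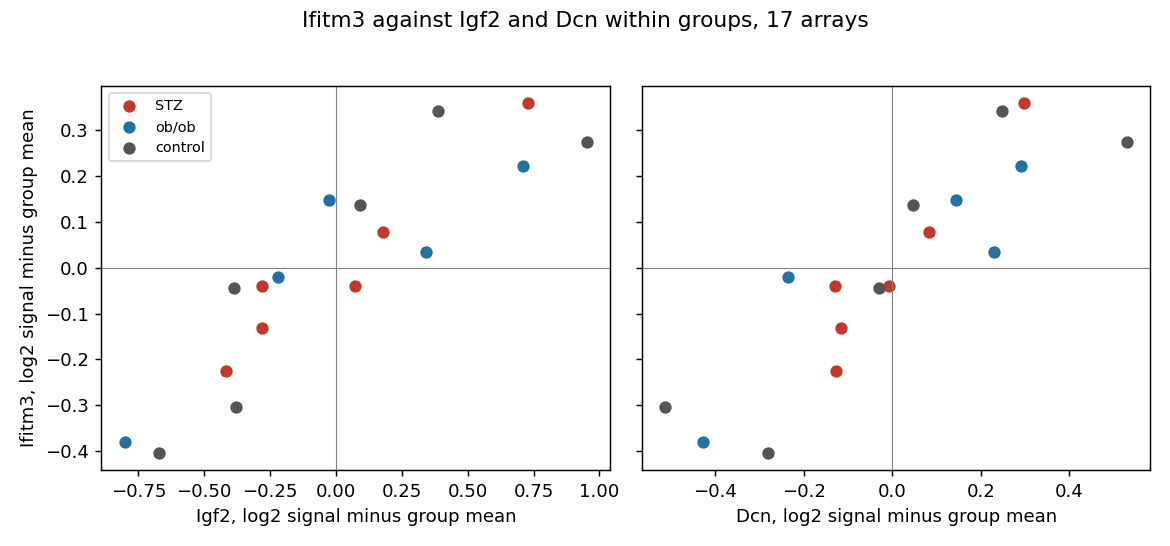
Log2 signal of Ifitm3 (vertical axis) against that of Igf2 (left) and Dcn (right), each as the deviation from its own group mean, over 17 arrays (red STZ, blue ob/ob, grey control). Arrays with more Igf2 or Dcn than their group had more Ifitm3, with correlations of 0.90 and 0.89.

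Upstream of the members, the interferon genes themselves could not be tested. Of 17 ligand genes 9 had a probe set and 0 passed the signal filter, with geometric mean signals over all arrays between 16 (Ifna9) and 337 (Ifna1), and 62 for Ifng. Of 11 genes listed as receptors, kinases and their signal carriers, 9 were tested and 0 passed in any comparison, with a median log2 fold change of 0.047 in STZ and 0.033 in ob/ob against control. Tyk2, a receptor kinase, stood at 0.16 ± 0.086 in STZ, and the receptor subunits Ifngr1 and Ifnar1 at 0.12 and 0.11 (limma adjusted p = 0.663, 0.783 and 0.830). In ob/ob the receptor subunits Ifnar2 and Ifngr2 stood at -0.19 and -0.16 and Stat3 at -0.14 (limma adjusted p = 0.487, 0.682 and 0.563).

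The other interferon regulatory factors and the feedback regulators gave no call either. Of 8 other factors 4 were tested, with a median of 0.081 in STZ and 0.044 in ob/ob; Irf5, which drives inflammatory cytokines, stood at 0.24 ± 0.15 and 0.28 ± 0.16 (limma adjusted p = 0.698 and 0.505). Irf2bp1, a corepressor that binds Irf2, stood at 0.10 in STZ, Irf3 at -0.12 in STZ and -0.21 in ob/ob, and Irf2 at 0.086 in ob/ob. Of 12 feedback regulators 9 were tested, with medians of 0.029 and -0.016. Ptpn11, a phosphatase, stood at 0.093 ± 0.039 in STZ and at 0.14 ± 0.041 in ob/ob, where all 5 arrays exceeded every control (limma adjusted p = 0.531 and 0.170). Such a separation of ob/ob from control occurred, in either direction, for 1.91% of all probe sets tested. The inhibitors Pias4 (0.13) and Ptpn1 (-0.086) in STZ, and Pias3 (0.11) and Pias1 (0.091) in ob/ob, came next by p after Ptpn11.

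Of 25 sensors of viral nucleic acid and their adaptors 7 were tested and 0 passed, with medians of 0.0028 in STZ and -0.0024 in ob/ob. Tlr3, a receptor for double-stranded RNA, stood at -0.32 ± 0.14 in STZ and -0.15 ± 0.14 in ob/ob (limma adjusted p = 0.534 and 0.731). Mavs, the mitochondrial adaptor, stood at 0.0028 in STZ and 0.31 ± 0.13 in ob/ob (limma adjusted p = 0.996 and 0.341). Trim25, a ubiquitin ligase, and Tbk1, a kinase, stood at -0.076 and 0.047 in STZ, and Trim25 at -0.17 in ob/ob.

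The other antiviral effectors lay close to the members in STZ. Of 72 listed, 55 had a probe set and 19 were tested, and 15 of the 19 lay above control in STZ with a median of 0.16 and 12 in ob/ob with a median of 0.028. None passed in any comparison. In STZ, Oasl1, an Oas relative, stood at 0.28 ± 0.13 and Trim21, an antibody receptor in the cytosol, at 0.26 ± 0.10 (limma adjusted p = 0.563 and 0.521). Adar, an enzyme that edits double-stranded RNA, stood at -0.18 ± 0.066 in STZ and -0.25 ± 0.070 in ob/ob, where all 5 arrays lay below every control (limma adjusted p = 0.461 and 0.143). Of all probe sets tested, 1.91% separated ob/ob from control. In ob/ob, Uba7, the activating enzyme for ISG15, stood at 0.36 ± 0.15 and Tdrd7, an interferon-induced restriction factor, at 0.086 (limma adjusted p = 0.357 and 0.632).

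**Figure D4:**
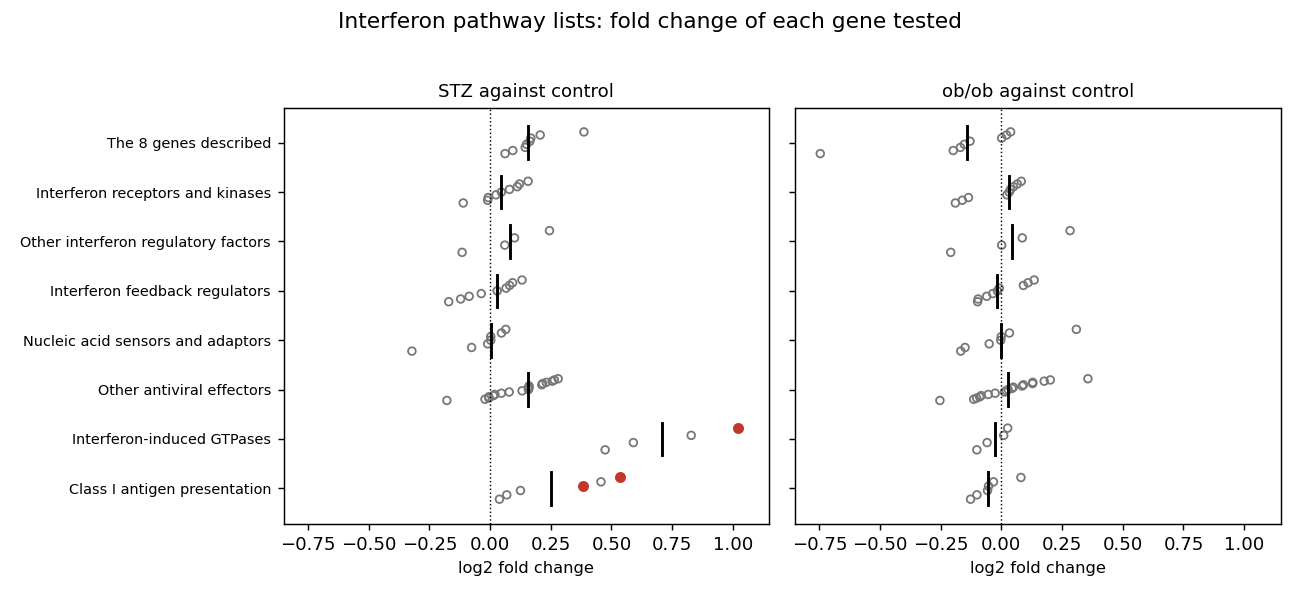
Log2 fold change (horizontal axis) of each tested gene in the 8 members and in 7 lists of the interferon pathway, for STZ against control and ob/ob against control; each circle is a gene, filled red where its adjusted p was under 0.05, and the vertical bar is the list's median. In STZ the members lie near the other antiviral effectors, with medians of 0.16 each, while the interferon-induced GTPases have a median of 0.71. Those GTPases are the 4, of 11 with a probe set, that passed the signal filter.

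Calls within the pathway came from interferon-induced GTPases and class I antigen presentation. Of 17 GTPases 4 were tested, all 4 above control in STZ with a median of 0.71. Igtp, which acts on the membrane around intracellular parasites, passed. Its signal ran from 642 to 1495 in STZ, stood at 325, 393, 475, 485 and 537 in ob/ob and ran from 329 to 506 in control, with no overlap between STZ and control. Of all probe sets tested, 0.567% separated these 2 groups. The Igtp change was 1.02 ± 0.18 (limma adjusted p = 0.0412). Gbp7, Iigp1 and Irgm1, also GTPases of cell-autonomous defence, stood at 0.59, 0.83 and 0.47 (limma adjusted p = 0.0507, 0.0939 and 0.247). In ob/ob against control the 4 had a median of -0.024 and none passed, and against STZ Gbp7 was lower at -0.69 ± 0.12 (limma adjusted p = 0.0308).

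Of 16 class I genes 6 were tested, all 6 above control in STZ with a median of 0.25, and B2m, the light chain, and H2-K1, a heavy chain, passed. B2m stood at 0.38 ± 0.059 in STZ against control and -0.48 ± 0.062 in ob/ob against STZ (limma adjusted p = 0.0137 and 0.00284). H2-K1, on a probe set of the cross-hybridising kind, stood at 0.53 ± 0.089 and -0.59 ± 0.094 (limma adjusted p = 0.0219 and 0.0298). H2-D1, a heavy chain also on a probe set of that kind, and Psmb10, a proteasome subunit, stood at 0.46 and 0.13 in STZ (limma adjusted p = 0.191 and 0.521). In ob/ob against control the class I median was -0.055 and none passed. Over the 17 arrays, within groups, B2m correlated with Irf1 and Ifit3 at 0.66 each and with Ifitm3 at 0.58, and with Irf7, Irf9, Ifit2, Oas1a and Stat2 at 0.28, 0.09, -0.03, -0.05 and -0.33. H2-K1 gave another order, with Oas1a at 0.56, Irf7 at 0.47, Ifitm3 at 0.40, Irf1 at 0.34, Ifit3 at 0.22, Stat2 at 0.13, Ifit2 at -0.35 and Irf9 at -0.36.

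The number of these calls changed when single arrays were left out. In STZ against control the class I count was 0 without STZ replicate 4, STZ replicate 5 or control replicate 5, and 1 without control replicate 1 or 4. The GTPase count was 0 without STZ replicate 4, 5 or 6, control replicate 1, 4, 5 or 6, or ob/ob replicate 1, 3 or 4, it was 2 without STZ replicate 3, and it was 3 without STZ replicate 1. In ob/ob against STZ the class I count was 1 without STZ replicate 2, 4 or 5 or ob/ob replicate 2 or 3. The GTPase count there was 0 without STZ replicate 2, 4, 5 or 6, control replicate 1 or 4, or ob/ob replicate 1, 2, 3 or 4, and 3 without STZ replicate 1. With the level of striatum, cortex and thalamus markers as a covariate, both counts were 0 in STZ against control. The GTPase count there was also 0 without a signal filter, with array weights, with a fit of the 2 groups and with the microglia covariate, and it was 2 with quantile normalization, median centring or robust eBayes. In ob/ob against STZ the GTPase count was 0 and the class I count 1 without a filter, with a fit of the 2 groups and with the region or microglia covariate, and array weights gave 2 and 3.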

How the data were processed

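The authors deposited a MAS5 signal intensity for each probe set on each array; the tool is named in the submitters' processing notes, and its version, scaling and detection calls are not given in the sources used here, so absence of a transcript cannot be judged. Of 22690 probe sets, 64 controls were dropped. After log2 transformation, the 40th percentile filter kept 13576. A linear model with 3 group means was then fitted in limma 3.58.1 (eBayes with trend; R 4.3.3, statmod 1.5.0), with Benjamini-Hochberg adjustment over all probe sets tested and a threshold of 0.05. SE is the standard error from that fit. The number of arrays limits precision: a log2 fold change had a median SE of 0.081 with STZ and 0.085 with ob/ob mice. The steps were tested on simulated data. Groups came from the sample titles.

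The members and all gene and marker lists were chosen with earlier results of these data known. Besides the 8 members, the named genes are the 3 of each list with the smallest p in STZ and in ob/ob against control, every called list gene and the 3 genes most like each member. List genes were read on their brightest probe set, and on a cross-hybridising one only if no other existed. Marker levels are means of log2 signal, tested by exact permutation over arrays and adjusted over 21 tests. Promoter sequences and gene positions are RefSeq's (GRCm38.p6) and all 8 members matched; the files give no probe set coordinates. Alternatives were other filters (none, 60th percentile), offsets (log2 of signal plus 100, a floor of 100), normalizations (quantile, median centring), eBayes settings, array weights, 2-group fits, the replicate number as a block, marker levels as covariates and leaving out each array. Replicate numbers did not pair the arrays.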

Additional observations from a re-analysis of the deposited data

How the results depend on the processing

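No member passed in any comparison under the alternatives chosen with the design, including each left-out array; Ifitm3 passed only with the meningeal covariates, added after the data were seen, which gave 1 member in STZ against control and 1 in ob/ob against STZ with either covariate. The member probe sets kept a value above 0 in STZ and below 0 in ob/ob against STZ under every alternative that tested them (the 60th percentile filter left only those of Irf1 and Ifitm3), except the brighter Stat2 probe set in STZ without control replicate 1 (-0.00057; range with 1 array left out -0.00057 to 0.12). In ob/ob against control some members changed sign under some alternatives. Ifit2 stood at -0.020 with quantile normalization, -0.010 with median centring, -0.0097 with the region covariate and -0.060 with the microglia covariate (-0.090 to 0.072 with 1 array left out). Ifit3 stood at -0.0029 with quantile normalization and -0.13 with the choroid plexus and meninges list as covariate (-0.11 to 0.082 with 1 array left out). Irf1 stood at -0.020 with the microglia covariate and -0.13 with that list (-0.051 to 0.13 with 1 array left out). Irf9 and Ifitm3, further from 0 in the main fit (-0.15 and -0.17), stood at 0.011 with the region covariate and 0.056 with the microglia covariate. The cause of these changes was not tested.

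Counts over all probe sets moved more than the members. Against the 7, 17 and 5 reported, STZ against control gave 0 with the region covariate (1014 at an unadjusted p under 0.05) and 16 with the 4 meningeal genes as covariate. For ob/ob against control there were 29 with quantile normalization, 38 with array weights, 6 with a fit of 2 groups, 0 with the region covariate (928 unadjusted), 7 with the microglia covariate and 6 with the choroid plexus and meninges list. For ob/ob against STZ there were 1 without a filter, 3 at the 60th percentile, 10 with array weights, 1 with a fit of 2 groups, 1 with the region covariate and 9 with the meningeal genes. With 1 array left out the counts ran from 0 to 18, 8 to 43 and 1 to 9. The level of hypothalamus markers in ob/ob against control passed with median centring (-0.22, exact permutation adjusted p = 0.0455). With the replicate number as a block, ob/ob against STZ gave 1 call, and Irf1 and Ifit3 stood at -0.025 and -0.017 in ob/ob against control. Same-numbered arrays did not deviate together (correlations -0.08 to 0.06, -0.11 to 0.11 and -0.17 to 0.09 in the 3 comparisons, with 1 of 6, 0 of 5 and 2 of 5 arrays closest to their own number), so the numbers do not pair the samples.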
